A study of Equus caballus with 68 samples.

Results

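The genes described here are interferon-stimulated genes, chosen by symbol from a list of 39 symbols and read in the expression table of the study. Of these, 35 had an entry among the 30371 genes of the table, and all 35 passed the filter on low values that left 14570 genes to test. The 4 symbols without an entry were RIGI, IFIT1, MX2 and USP18, and RIGI is the newer symbol of DDX58, which was found. Many entries of the table carry no symbol, so IFIT1, MX2 and USP18 may be present unnamed. The samples were bone marrow mononuclear cells (BMNC) of 8 adult Thoroughbred horses aged 3 to 9 years, 6 geldings and 2 females. Cells were sequenced uncultured (BMNC at 0 hours, 8 libraries) or after culture of each horse's own cells in its own undiluted synovial fluid. The fluid was from a healthy middle carpal joint (SF) or from a radiocarpal joint injected with lipopolysaccharide (inflamed synovial fluid, ISF). Inflammation and the joint of origin therefore cannot be told apart between the fluids. Each fluid gave 7 libraries at 48 hours and at 10 days and 8 libraries at 96 hours and at 6 days, so that the 68 libraries came from the same 8 animals. Each library was 1 well of cells, with fluid added every 48 hours, and both fluids had been freed of their own cells. No library of Moon was present at 48 hours and none of Flash at 10 days.

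Interferons are secreted by cells that sense viral or bacterial products. Type I interferons bind the IFNAR receptor and type III interferons the IFNLR1 receptor; both act through JAK kinases and a complex that holds STAT2 and IRF9, which switches on a shared set of genes. The products of these genes sense foreign RNA, block viral replication, tag proteins with the ubiquitin-like ISG15, or, as IRF7 and STAT2, feed back on the response. Macrophages exposed to lipopolysaccharide or to interferon are known for strong expression of this set.

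Values were GeTMM, a unit that corrects for gene length and library size, and levels are given on that scale unless log2 is named. Libraries held 15.7 M to 36.0 M reads on genes. The SF library of Moon at 6 days stood apart, with 2763 of the tested genes at 0 against a median of 588 over all libraries and a next highest of 1169. The labels of 2 libraries were in doubt, since after the group means were removed 66 of 68 libraries were nearest to other libraries of their own horse, and the exceptions were Dealings and Dreamer in ISF at 96 hours, each nearest to the other's horse. Macrophage markers (7 of 7 found, none at 0) summed to 184 to 307 GeTMM at 0 hours and to 29897 to 82485 at 10 days over both fluids. In bulk RNA, fewer cells of a type and less RNA per cell cannot be told apart.

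The interferon-stimulated genes moved together within single libraries, and in 4 of the 9 groups 1 library carried nearly all of the highest values. The mean log2(GeTMM + 1) over the 35 genes was 6.11 in the 0 hour cells of Dealings, against 4.15 to 4.68 in the other 7 horses. It was 6.63 in the ISF library of Ollie at 48 hours, where the next was Dealings at 5.42, and 6.61 in the ISF library of Moon at 96 hours, where the next was the library labelled Dreamer at 5.27. These 3 libraries held the group's highest value for 33, 33 and 35 of the 35 genes, while they held it for 10.1%, 10.5% and 12.01% of all genes tested.

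In SF the highest libraries were again those of Ollie, Dealings and Moon. The mean level was 5.57 in Ollie at 48 hours, 5.75 in Dealings at 6 days and 7.56 in Dealings at 10 days. Dealings was highest for 28 of the 35 genes at 6 days and for 34 at 10 days, against 14.0% and 19.2% of all genes tested. Ollie was highest for 24 at 48 hours, against 12.1%. At 96 hours in SF no library stood out, and the mean levels ran from 3.87 to 4.82. Moon was at the top there and highest for 14 genes, against 11.9%. In ISF the library of Moon was highest for 18 genes at 6 days and for 22 at 10 days, against 12.9% and 18.6%. Over all 68 libraries, the SF library of Dealings at 10 days held the highest value of 25 genes, and the ISF library of Ollie at 48 hours held that of IRF9, IFIT2, IFIT3, IFIT5, ISG20, HERC5 and HERC6.

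**Figure D1:**
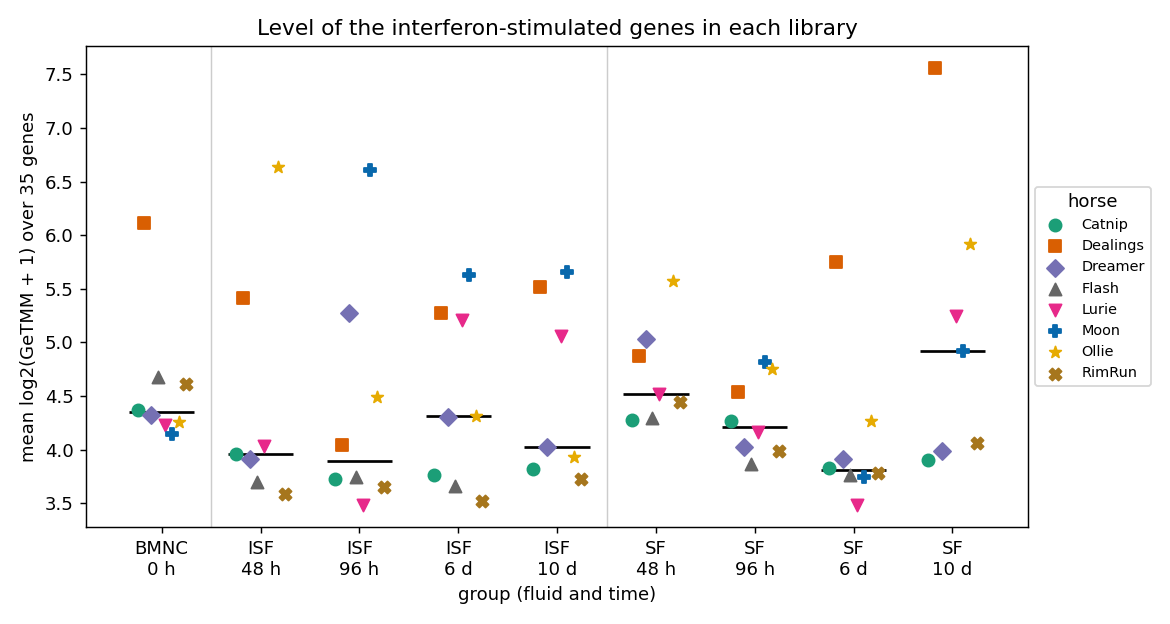
Mean log2(GeTMM + 1) over the 35 genes in each of the 68 libraries, by fluid and time; each symbol is 1 library, colours and shapes mark the horse, and black lines are group medians. Dealings at 0 hours (6.11), Ollie in ISF at 48 hours (6.63), Moon in ISF at 96 hours (6.61) and Dealings in SF at 10 days (7.56) lie above the rest of their groups.

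The highest library was not that of 1 horse throughout. Dealings ranked among the highest 3 libraries in 8 of its 9 groups, Ollie in 6 of 9 and Moon in 4 of 7, while Catnip did so in 0 of 9. The group in which Dealings was not among them was ISF at 96 hours, where its label was in doubt. There the library labelled Dealings had rank 4, and the one labelled Dreamer, nearest to other libraries of Dealings, had rank 2. Moon was lowest of 8 at 0 hours, at 4.15, and highest of 8 in ISF at 6 days, at 5.63. Between 6 and 10 days in SF the mean level of Ollie went from 4.26 to 5.92 and that of Lurie from 3.48 to 5.24, while that of Dreamer was 3.92 and then 3.99.

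**Figure D2:**
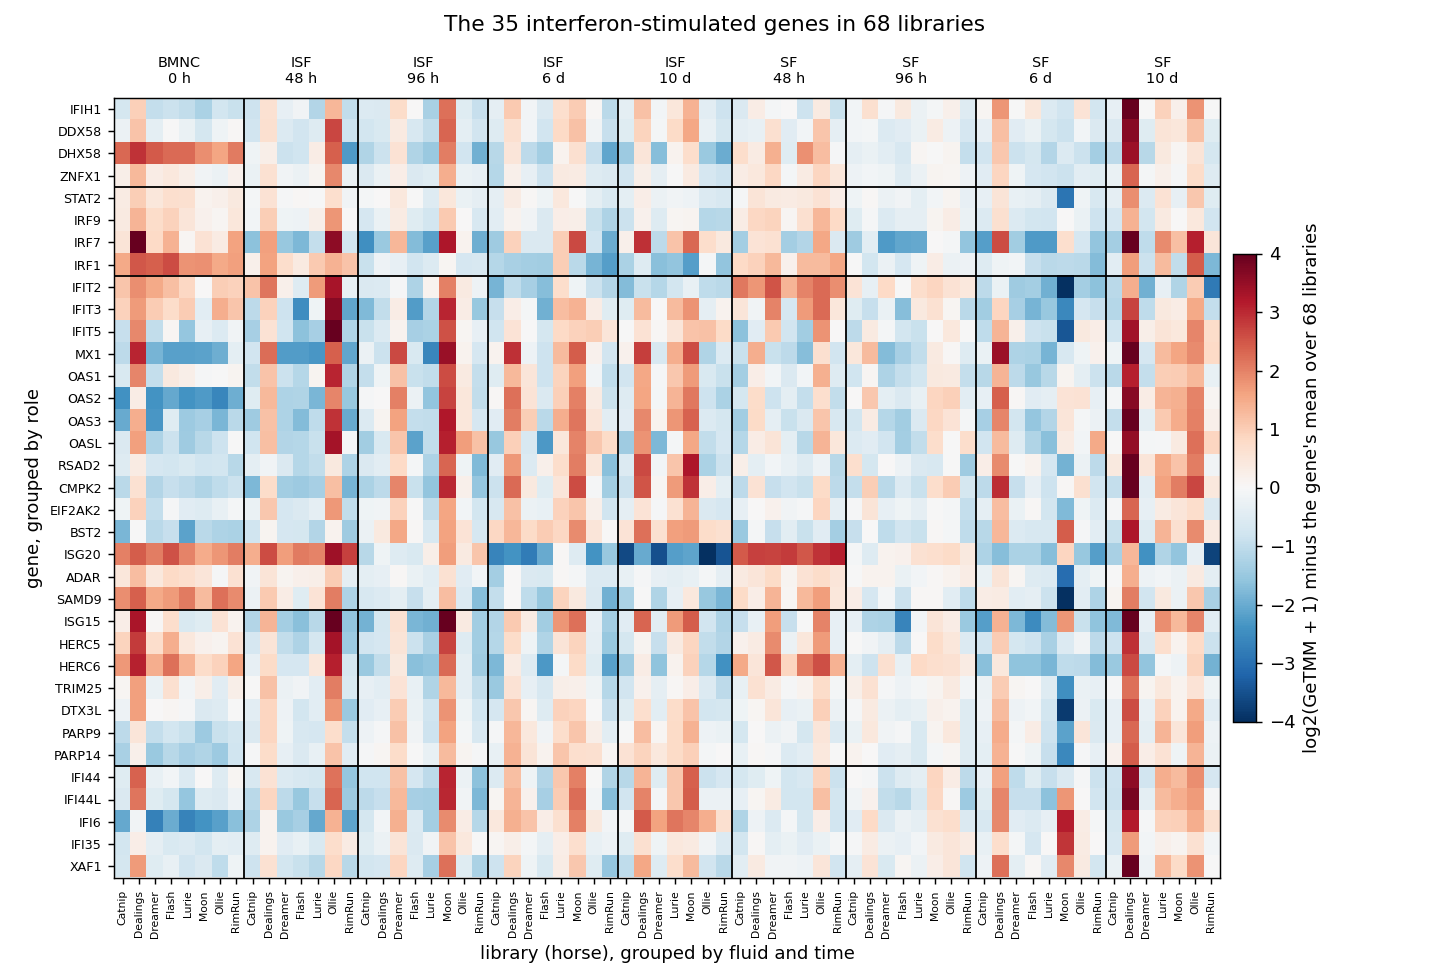
The 35 genes (rows, by role) in the 68 libraries (columns, by group and horse), as log2(GeTMM + 1) minus the gene's mean over all libraries; red is above and blue below that mean. Red columns that cross nearly all rows mark single libraries, and the rows of DHX58, IRF1, ISG20 and SAMD9 change from red to blue along the culture.

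ISG15 encodes the ubiquitin-like protein that is joined to other proteins during the response. At 0 hours its level ran from 21.3 to 327 with a median of 38.4, and the value of Dealings was the only one above 54.4. In ISF at 48 hours it ran from 9.73 to 927 with a median of 14.1, the next highest library after Ollie being at 86.9. In ISF at 96 hours it ran from 8.07 to 570 around a median of 16.1, and the 7 libraries other than that of Moon reached at most 51.6. In SF at 10 days the 7 values were 9.10 in Catnip, 24.8 in RimRun, 26.0 in Dreamer, 84.0 in Moon, 122 in Lurie, 133 in Ollie and 1064 in Dealings. The libraries of Dreamer, RimRun and Catnip were thus far below the other 4 in that group.

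MX1, a GTPase that blocks viruses inside the cell, followed the same libraries. Its level at 0 hours was 6.24 to 23.7 in 7 horses and 271 in Dealings. In SF at 10 days it ran from 19.6 to 119 in 6 horses and was 1555 in Dealings, the highest of all 68 libraries. IRF7, the transcription factor that raises further interferon production, was at 381 in Dealings at 0 hours and at most 62.1 in the other horses. At 10 days in SF, IRF7 was 966 in Dealings and 178 in Ollie, with the other 5 between 7.14 and 75.7.

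RSAD2, the radical SAM enzyme viperin, was a low gene in most libraries, with group medians from 1.27 at 0 hours to 7.08 in SF at 10 days. Its counts were small, with 18 reads in the lowest and 60 in the highest library at 0 hours. The value in SF at 10 days was 98.6 in Dealings, from 2172 reads, against 2.37 to 14.2 in the other horses. CMPK2, a mitochondrial nucleotide kinase that lies next to RSAD2 in the genome, had group medians of 0.513 to 11.3 and reached 77.5 in the same library.

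The spread between libraries of 1 group was wider for these genes than for most genes. The within-group SD of log2(GeTMM + 1) had a median of 0.99 over the 35 genes and of 0.35 over all 14570 genes tested. It was above the 90th percentile of all tested genes for 29 of the 35, and highest for ISG15 (1.68), MX1 (1.67) and IRF7 (1.66). The lowest values were those of ADAR (0.51), the RNA-editing enzyme, and STAT2 (0.53), which was within the highest 25% of genes like the other 34.

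**Figure D3:**
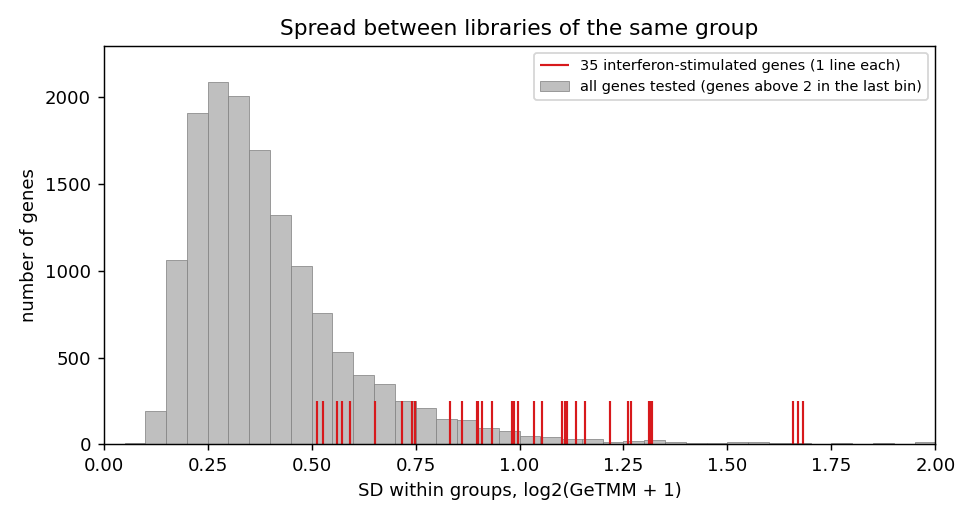
Number of tested genes by SD within groups of log2(GeTMM + 1) (grey bars), with the 35 interferon-stimulated genes as red lines. The red lines lie between 0.51 and 1.68, while the median of all tested genes is 0.35.

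The groups of the design took a smaller share of the variation of these genes than of most. Differences between the 9 groups made up a median of 24.0% of the sum of squares of the 35 genes and 51.7% over all genes tested. Differences that a horse kept across groups made up 29.2% and 10.8%. The median share left beyond both was 40.6% and 33.8%. Each library of a group was of another horse, so the share left also lies between horses, as differences not kept across groups. The smallest group shares were those of EIF2AK2, the RNA-activated kinase PKR, with 8.20% between groups, and DDX58 with 8.33%. The highest were those of ISG20, an exonuclease, with 84.3%, IRF1 with 69.9%, and IFIT2, which binds viral RNA, with 60.8%.

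In 8 of the 9 groups no library held the highest value of more interferon-induced genes outside the 35 than the one with the highest mean level of the 35. Of 20 further such genes found, the number highest in its group was 14 in Dealings at 0 hours, 13 in Ollie in ISF at 48 hours, 12 in Moon in ISF at 96 hours and 16 in Dealings in SF at 10 days. It was 6 both in Moon and in Lurie in ISF at 6 days. The exception was ISF at 10 days, where it was 10 in Dealings (against 13.4%) and 7 in Moon (against 18.6%), the highest library for the 35. CXCL10, a chemokine that draws T cells, was at 0.894 to 29.8 at 0 hours and at 4.25 to 688 in SF at 10 days, with Dealings highest in both groups.

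The 3 interferon genes read here, IFNB1, IFNG and IFNK, were close to the limit of detection. Values of other interferon genes are not given, so this does not cover interferon transcription as a whole. IFNB1, which encodes interferon beta, had 54 reads in all over 18 libraries. Its highest counts were 11 reads in the ISF library of Moon at 96 hours, 10 in the ISF library labelled Dealings at 96 hours and 7 in the ISF library of Ollie at 48 hours. The first and the last were the highest libraries of their groups for the interferon-stimulated genes, whereas the library labelled Dealings had rank 4 of 8. IFNG, which encodes interferon gamma, had 33 reads in 12 libraries, with 9 in Ollie and 7 in Dealings in SF at 10 days. IFNK had 9 reads in all. Such counts limit any comparison of these 3 genes.

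Markers of other cells were read in the same libraries. Ranks are from high to low by the mean log2(GeTMM + 1) over the markers found, and summed GeTMM can rank libraries otherwise. In Dealings in SF at 10 days the neutrophil precursor markers (6 of 8 found) summed to 2.15 GeTMM, the lowest of 7 horses, where the group ran up to 1648. In Moon they had rank 2 of 7 in ISF at 10 days, and rank 3 of 8 in ISF at 6 days and in SF at 96 hours. Elsewhere in the libraries with the highest mean level of their groups they had ranks 4 to 8. In the ISF library of Ollie at 48 hours the macrophage markers were the lowest of 7 by this mean, and in Dealings at 0 hours they had rank 5 of 8. Their sum in that library of Ollie was 22781 GeTMM, inside the group's range of 14796 to 27364. By the mean, the macrophage markers had rank 1 of 8 in Dealings in SF at 6 days and ranks 4 to 7 in the other libraries of this kind. The T cell markers (5 of 5 found) had ranks 4 to 7 in the libraries with the highest mean level of each group, apart from the ISF library of Moon at 6 days, where they had rank 3 of 8. Of the plasmacytoid dendritic cell markers, 2 of 6 were found, neither of them at 0 in these libraries. They had rank 1 of 8 in Moon in ISF at 6 days and rank 2 in Dealings in SF at 10 days and in Moon in ISF at 96 hours and at 10 days. In the remaining libraries of this kind they had ranks 3 to 5. The B cell markers (4 of 5 found) had rank 1 in Moon in ISF at 6 and at 10 days. They had rank 2 in Dealings at 0 hours and in Moon in ISF at 96 hours, and ranks 4 to 6 in the others. The stromal markers (5 of 5 found) had rank 1 in Moon in ISF at 10 days, and in Dealings in SF rank 2 at 6 days and rank 3 at 10 days. In the others they had ranks 3 to 5. The part of any of these cells in the high libraries was not tested.

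The first question of the design is what inflamed fluid does against healthy fluid at each time. Few interferon-stimulated genes passed the test, which was limma's moderated test on log2(GeTMM + 1) with Benjamini-Hochberg adjustment over all tested genes and a threshold of 0.05 (called). At 48 hours 0 of the 35 were called, against 1.68% of all tested genes (0.872% higher and 0.81% lower in ISF), and 1 had an unadjusted p under 0.05. At 96 hours 0 were called, against 10.5% (6.16% higher, 4.3% lower), again with 1 under 0.05 unadjusted. A count-based fit, limma voom on recovered reads, also called 0 at both times.

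The horses went opposite ways at 48 hours. The mean level of the 35 genes was lower in ISF than in SF in 5 of 7 horses, by up to 1.12 in Dreamer, and higher by 1.06 in Ollie and 0.55 in Dealings. All 35 genes were higher in ISF in Ollie and 33 were lower in ISF in Dreamer. The median log2 fold change was -0.19 over the 35 genes and -0.02 over all tested genes. HERC6, an E3 ligase related to HERC5, had the lowest fold, -1.36 ± 0.58 (SE), with a limma adjusted p of 0.251. Its values in ISF, 10.1 to 155, overlapped those in SF, 24.5 to 108.

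At 96 hours the mean level was higher in ISF in 2 of 8 horses, by 1.79 in Moon and by 1.25 in the library labelled Dreamer, and lower in the other 6. The median log2 fold change was 0.06 and turned to -0.18 without Moon. With both doubted libraries left out it was -0.02. BST2, the tethering protein that holds virus particles on the cell, was higher in ISF in 8 of 8 horses. Its level was 46.2 to 228 with a median of 87.3 in ISF and 36.2 to 77.2 with a median of 41.4 in SF, which overlap, and the log2 fold change was 0.90 ± 0.41 (SE) with an adjusted p of 0.150. With the horse as a block in the fit, BST2 was called (limma, adjusted p = 0.0286), so that the count at 96 hours became 1.

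At 6 days 1 of the 35 genes was called, PARP14, against 30.2% of all tested genes (16.7% higher and 13.6% lower in ISF). PARP14 adds ADP-ribose to proteins. Its level ran from 10.0 to 34.9 with a median of 19.6 in ISF and from 1.30 to 35.2 with a median of 10.6 in SF. It was higher in ISF in 7 of 8 horses although the groups overlapped, with a log2 fold change of 0.91 ± 0.32 (SE) and a limma adjusted p of 0.0235. The lowest SF value was that of the Moon library that stood apart, and without it the fold was 0.60 with an adjusted p of 0.106. The call was also lost without Moon (0.58, adjusted p = 0.129), without Lurie (0.75, adjusted p = 0.113) and in a fit of the 6 day groups alone (adjusted p = 0.155). With the horse as a block the count was 2, PARP14 and BST2 (0.85 ± 0.30, SE, adjusted p = 0.0203).

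The fold at 6 days was above 0 for 28 of the 35 genes, with a median of 0.40, against 0 over all tested genes. The median was 0.15 without Moon and 0.31 without only its SF library that stood apart. The horses did not share it. The mean level was higher in ISF in 4 of 8 horses, by 1.88 in Moon, 1.72 in Lurie, 0.39 in Dreamer and 0.05 in Ollie, and lower by 0.47 in Dealings. IFIT3, a partner of IFIT2, had the highest fold, 1.16 ± 0.61 (SE, adjusted p = 0.152), with values of 22.3 to 231 in ISF and 13.6 to 159 in SF.

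At 10 days 2 of the 35 genes were called, both lower in ISF, against 20.8% of all tested genes (9.95% higher and 10.8% lower in ISF). ISG20 was at 0.314, 0.761, 0.859, 0.936, 3.61, 3.93 and 4.31 in the 7 ISF libraries and at 0.661, 3.01, 6.17, 7.64, 8.23, 16.1 and 52.5 in SF. It was higher in ISF in 1 of 7 horses, with a log2 fold change of -1.68 ± 0.45 (SE, limma adjusted p = 0.00440). Counts behind the lowest ISF value were 4 reads.

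IRF1, a transcription factor induced by interferon gamma, was the other gene called at 10 days. Its level was 7.98 to 38.4 with a median of 12.8 in ISF and 11 to 224 with a median of 29.96 in SF. The highest SF values were those of Ollie (224), Dealings (133) and Lurie (98.8), and the groups overlapped. The log2 fold change was -1.47 ± 0.39 (SE, limma adjusted p = 0.00390), with IRF1 higher in ISF in 1 of 7 horses. With the horse as a block XAF1, a pro-apoptotic protein, was called as well (-1.04 ± 0.37, SE, adjusted p = 0.0316). The calls of ISG20 and IRF1 held in 16 of 17 alternative fits and were lost when the 10 day groups were fitted alone, with adjusted p of 0.0708 for ISG20 and 0.101 for IRF1.

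The fold at 10 days was below 0 for 32 of the 35 genes, with a median of -0.50 against -0.02 over all tested genes. The mean level was lower in ISF by 2.04 in Dealings and by 1.99 in Ollie, while the other 5 horses lay between -0.34 and 0.74. Lymphocyte markers moved in the same comparison. The T cell markers had a mean log2(GeTMM + 1) of 0.85 to 1.89 in ISF and 2.48 to 5.22 in SF, without overlap, and the B cell markers a median of 1.25 in ISF and 3.23 in SF. Their part in the calls was not tested. Without Moon 6 genes were called, ISG20, IRF1, SAMD9, STAT2, TRIM25 and ZNFX1, and all were lower in ISF.

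**Figure D4:**
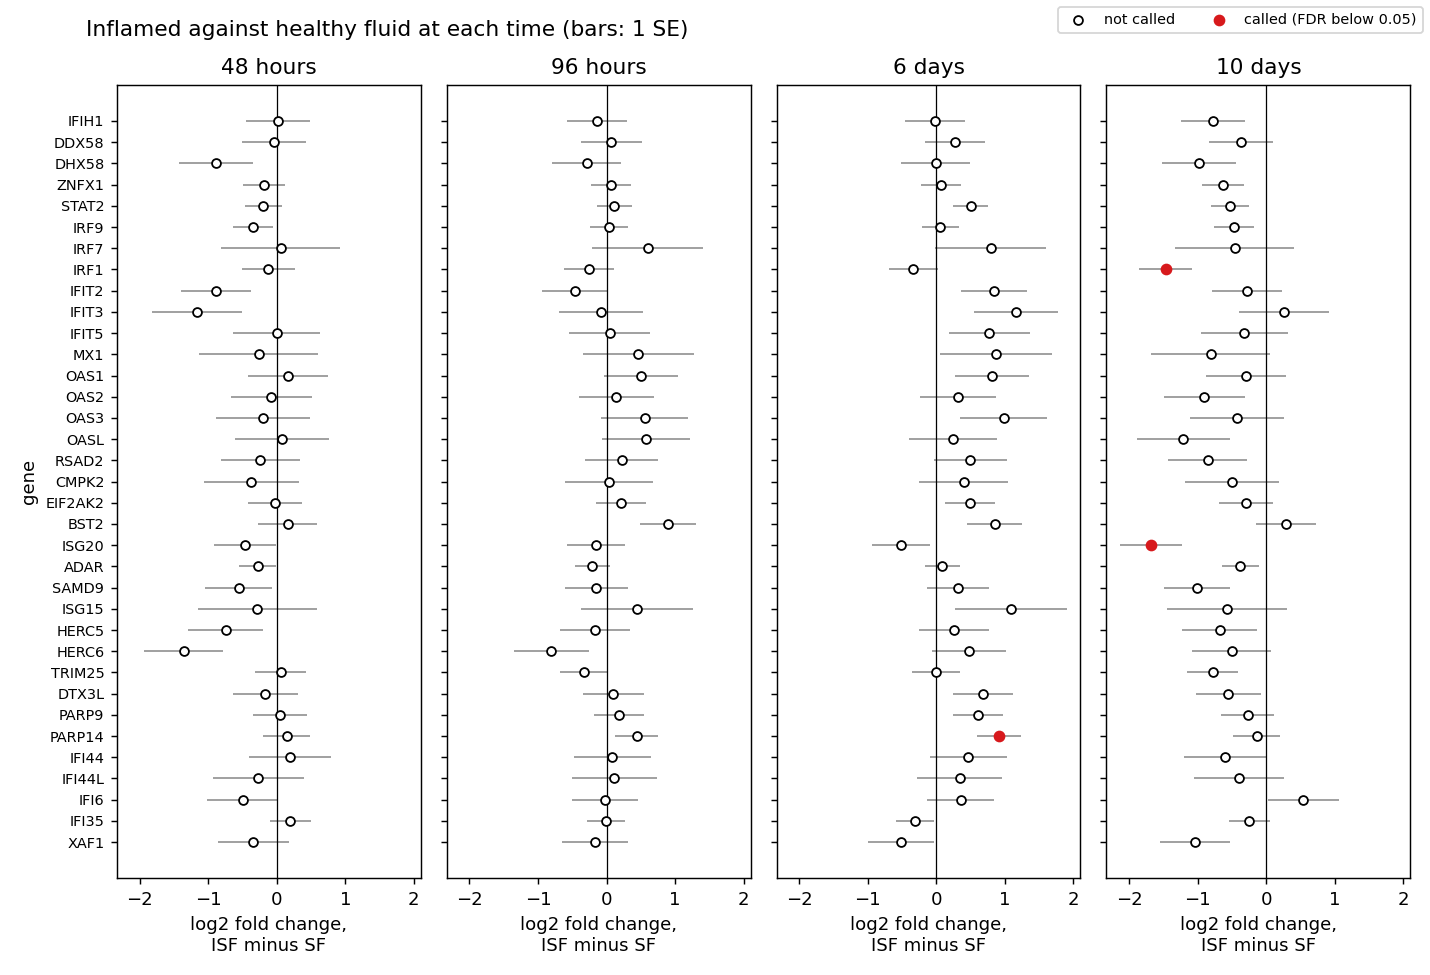
Log2 fold change of ISF over SF for each of the 35 genes at 4 times, with bars of 1 SE; red points were called at an adjusted p below 0.05 by limma. The called genes are PARP14 at 6 days and IRF1 and ISG20 at 10 days, and the points lie mostly right of 0 at 6 days (28 of 35) and left of 0 at 10 days (32 of 35).

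Whether the difference between the fluids itself changed with time was tested with interaction terms. Of the 35 genes 0 were called in any of 4 such terms, which compared each time with the one before it and the last with the first. The shares of all tested genes were 0.0206% (48 to 96 hours), 0% (to 6 days), 0.226% (to 10 days) and 2.99% (first to last). Unadjusted p was under 0.05 for 0, 0, 3 and 1 of the 35 genes in limma, and limma voom called 0 in each. The 3 genes from 6 to 10 days were IRF1, STAT2 and PARP14, with log2 changes in the fold of ISF over SF of -1.13, -1.03 and -1.05 and adjusted p of 0.326, 0.187 and 0.295.

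The second question is how the cells changed along the culture. From 0 to 48 hours 6 of the 35 genes were called in ISF, against 52.7% of all tested genes, and 5 in SF, against 45.4%. Both intervals use the same 0 hour libraries. OAS2, which makes the 2-5A messenger that activates RNase L, rose by 1.56 ± 0.57 (SE, limma adjusted p = 0.0186) in ISF and by 1.63 ± 0.57 (adjusted p = 0.0158) in SF. Its median of 3.53 in uncultured cells compared with 8.90 in ISF and 13.0 in SF, and it was higher at 48 hours in 7 of 7 horses in each fluid, although the ranges overlapped through the 26.8 of Dealings at 0 hours. Without Ollie it was not called in either fluid (1.07, adjusted p = 0.147 in ISF, and 1.37, adjusted p = 0.0668 in SF), and without Catnip not in ISF.

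PARP14 rose by 1.08 ± 0.33 (SE, limma adjusted p = 0.00445) in ISF and by 0.94 ± 0.33 (adjusted p = 0.0162) in SF, from a median of 4.79 to 10.2 and 12.3. IFI6, a small mitochondrial and endoplasmic reticulum protein that delays apoptosis, rose in SF by 1.52 ± 0.50 (SE, adjusted p = 0.0105). The median of IFI6 went from 113 at 0 hours to 337 in SF at 48 hours and to 920 at 10 days, and in ISF it was 194 and then 1496. In the fit blocked by horse IFI6 was also called in ISF, at 1.15 ± 0.38 (SE, adjusted p = 0.00798).

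DHX58, the LGP2 RNA sensor, fell by 2.38 ± 0.52 on the log2 scale (SE, limma adjusted p = 9.78e-05) in ISF over the first 48 hours. Its level was 56.9 to 144 with a median of 92.4 at 0 hours and 3.01 to 100 with a median of 16.2 in ISF, where only Ollie was above 22.9. In SF DHX58 fell by 1.49 ± 0.52 (SE, adjusted p = 0.0153), to 12.8 to 68.7 with a median of 30.8. IRF1 fell (-1.06 ± 0.37 in ISF and -0.93 ± 0.37 in SF, SE, adjusted p = 0.0147 and 0.0360) and was lower at 48 hours in 7 of 7 horses in each fluid. The ISF call was lost without Dreamer (-0.96, adjusted p = 0.0531) and without Flash (-0.87, adjusted p = 0.0755). The SF call was lost in 5 of 17 alternative fits, without a filter and without Catnip, Dealings, Dreamer or Flash, with adjusted p up to 0.178.

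SAMD9, an antiviral and growth-restricting protein, fell in ISF by 1.58 ± 0.47 (SE, limma adjusted p = 0.00371), from a median of 89.0 to one of 29.1, and in 7 of 7 horses. HERC6 fell in ISF by 1.36 ± 0.56 (SE, adjusted p = 0.0354), from a median of 51.3 to one of 13.5, a call lost in 7 of 17 alternative fits. In the blocked fit SAMD9 was also called in SF (-1.03 ± 0.43, SE, adjusted p = 0.0413). In the same interval the neutrophil precursor markers fell in every group median, from 10.2 in uncultured cells to 8.39 (ISF) and 8.45 (SF) as mean log2(GeTMM + 1), and their part in these falls was not tested.

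**Figure D5:**
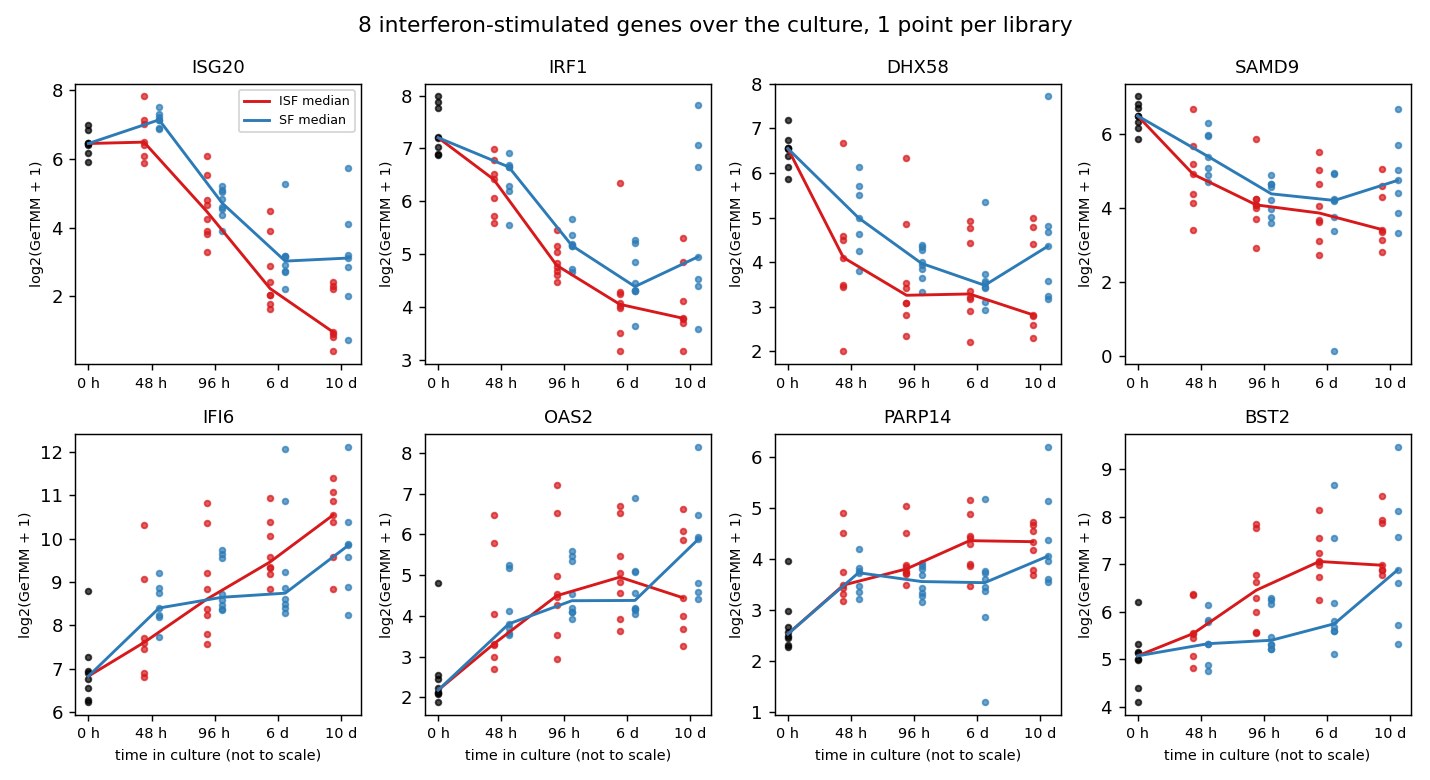
Levels of 8 genes as log2(GeTMM + 1) in every library along the culture, black at 0 hours, red in ISF and blue in SF; lines join group medians. The medians of ISG20, IRF1, DHX58 and SAMD9 are lower at 10 days than at 0 hours, that of ISG20 at 0.936 GeTMM in ISF and 7.64 in SF against 86.3, and those of IFI6, OAS2, PARP14 and BST2 are higher.

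From 48 to 96 hours 2 of the 35 genes were called in ISF, against 19% of all tested genes, and 5 in SF, against 27.3%. All fell. ISG20 fell by 2.15 ± 0.43 (SE, limma adjusted p = 1.74e-04) in ISF and by 2.46 ± 0.43 (SE, adjusted p = 9.46e-06) in SF, where the 8 libraries at 96 hours, 13.9 to 35.7, lay wholly below the 7 at 48 hours, 117 to 183. IRF1 fell too (-1.42 ± 0.37 in ISF and -1.28 ± 0.37 in SF, SE, adjusted p = 0.00403 and 0.00663), and in ISF its values at both times did not overlap.

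The other falls in SF between 48 and 96 hours were those of IFIT2, HERC6 and IRF9. IFIT2 fell by 1.54 ± 0.50 (SE, limma adjusted p = 0.0147), from 387 to 876 down to 119 to 277, with no overlap. IRF9, the DNA-binding partner of STAT2, fell by 0.90 ± 0.28 (SE, adjusted p = 0.0122) and HERC6 by 1.44 ± 0.56 (SE, adjusted p = 0.0461). The HERC6 call was lost in 9 of 17 alternative fits, 6 of them without 1 horse (Catnip, Dreamer, Flash, Lurie, Ollie or RimRun), with adjusted p up to 0.113. Under the block the count in SF was 8, adding IFIT3, SAMD9 and DHX58, each lower at 96 hours (adjusted p = 0.0365, 0.0293 and 0.0378), and BST2 was called as higher in ISF (0.84 ± 0.31, SE, adjusted p = 0.0393).

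Later steps called few of these genes. From 96 hours to 6 days ISG20 was the 1 gene called in ISF (-1.90 ± 0.42, SE, limma adjusted p = 0.00267), against 6.38% of all tested genes. In SF the 2 genes called were IFIT2 (-2.22 ± 0.48, SE, adjusted p = 0.00313) and ISG20 (-1.53 ± 0.42, SE, adjusted p = 0.0322), against 2.05%. The lowest IFIT2 value in SF at 6 days, 3.30, was that of the Moon library that stood apart, and the others ran from 39.2 to 126. The ISG20 call in SF was lost in 9 of 17 alternative fits. In the fit of only the groups compared, 0 of the 35 were called in SF in this interval, so the IFIT2 call was lost there too. From 6 to 10 days in ISF 0 of the 35 were called, against 10.5%, with 1 under an unadjusted p of 0.05 and 0 called by limma voom. That 1 gene was ISG20, which with the horse as a block fell by 1.24 ± 0.41 (SE, adjusted p = 0.0307).

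From 6 to 10 days in SF the fold was above 0 for 33 of the 35 genes, with a median of 1.02 against 0.05 over all tested genes. The 6 day library of Moon that stood apart was below the other SF libraries for 15 of the 35. The mean level rose unequally, from 5.75 to 7.56 in Dealings, 3.48 to 5.24 in Lurie and 4.26 to 5.92 in Ollie. In Catnip it went from 3.83 to 3.90, in Dreamer from 3.92 to 3.99 and in RimRun from 3.78 to 4.06. Over the same interval the median of the neutrophil precursor markers went from 7.38 to 3.90 and that of the stromal markers from 0.89 to 2.59, with 1 library at 9.39, as mean log2(GeTMM + 1), and their part was not tested. STAT2 alone was called (0.85 ± 0.27, SE, limma adjusted p = 0.0481), against 4.78% of all tested genes, and 19 of the 35 had an unadjusted p under 0.05. The STAT2 values were 6.20 to 77.6 at 6 days, the lowest that of the Moon library that stood apart, and 36.2 to 198 at 10 days. They overlapped, the call was lost in 13 of 17 alternative fits, and without the Moon library the fold was 0.52 with an adjusted p of 0.206.

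Under the horse block 4 genes were called between 6 and 10 days in SF, all higher at 10 days. These were IRF7 (2.16 ± 0.63, SE, limma adjusted p = 0.0207), RSAD2 (1.64 ± 0.47, SE, adjusted p = 0.01996), PARP14 (0.98 ± 0.29, SE, adjusted p = 0.0232) and STAT2 (0.86, adjusted p = 0.0142). IRF7, RSAD2 and PARP14 were higher at 10 days in 7 of 7 horses each. For Moon the 6 day value came from the library that stood apart, which the blocked fit kept. There RSAD2 was at 0, against 0.798 to 12.8 in the other SF libraries, and PARP14 at 1.30, against 6.30 to 35.2. IRF7 was at 32.2 there, within the range of the others. A fit with limma voom called 0 genes in this interval and gave 22 an unadjusted p under 0.05.

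Levels differed widely between the members, per base of transcript. At 0 hours the highest medians were those of IFIT2 (313), IFIT3 (178), IRF1 (146), IRF9 (121) and IFI6 (113), and the lowest those of CMPK2 (0.956), RSAD2 (1.27) and XAF1 (1.96). By 10 days in SF the order had changed. IFI6 led at 920, followed by BST2 at 117, IFIT3 at 108 and IRF9 at 87.5. IFIT2 was at 71.0 and IRF1 at 29.96.

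Among the RNA sensors, IFIH1 (MDA5) and DDX58 (RIG-I) were called in no comparison, with group medians of 2.697 to 6.81 and 14.6 to 31.4. ZNFX1, a helicase of the mitochondrial surface, had group medians of 24.9 to 46.7 and was not called either. DHX58 was the only one of the 4 called, with a median of 92.4 at 0 hours and of 6.07 in ISF and 19.5 in SF at 10 days. Among the transcription factors IRF7 was called in no comparison of the fit without the block, while its group medians ran from 5.79 in ISF at 96 hours to 46.8 in SF at 10 days.

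Of the antiviral effectors, IFIT3, IFIT5, MX1, OAS1, OAS3, OASL, RSAD2, CMPK2, EIF2AK2, BST2 and ADAR were called in no comparison of the fit without the block. Likewise ISG15, HERC5, TRIM25, DTX3L and PARP9 were called in none, and nor were IFI44, IFI44L, IFI35 and XAF1. TRIM25 is the ligase that activates RIG-I, HERC5 joins ISG15 to its targets, and DTX3L and PARP9 act as a pair. BST2 had a median of 32.8 at 0 hours and of 125 in ISF and 117 in SF at 10 days, and IFI35 stayed between medians of 32.8 and 51.3.

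The SF library of Moon at 6 days split these genes by an uncommon pattern. It was above the other 7 SF libraries for BST2, ISG20, ISG15, IFI6 and IFI35, which are 495 to 1843 bases long, and below them for 15 genes of 1071 to 6960 bases. The remaining 15 genes, of 1182 to 6139 bases, were within the range of the others. In the Moon library SAMD9 was at 0.0864, from 4 reads, and IFI6 at 4302, while the other 7 libraries reached 1868 for IFI6. RSAD2, IFIT5 and DTX3L had 0 reads in that library.

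Several members lie side by side in the horse genome. In the RefSeq annotation of the TB-T2T assembly, a build other than that of the files and used here only for gene order, adjacent pairs were RSAD2 with CMPK2, DTX3L with PARP9, HERC5 with HERC6, IFI44 with IFI44L and MX1 with MX2, and OAS1, OAS2 and OAS3 form a run. Reads of similar copies can be split in counting, so that the values of single OAS, IFIT and IFI44 genes are less certain.

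Genes that carry the signal were read from further lists. Of 10 ligands and receptors, 9 were found and 6 tested. IFNAR1, a type I receptor chain, rose over the first 48 hours (1.41 ± 0.25 in ISF, 1.78 ± 0.25 in SF), with SE and limma adjusted p of 3.08e-06 and 2.30e-08. IFNGR2 rose by 1.62 and 1.64, and IL10RB by 1.51 and 1.49, in the same order. IFNLR1, the type III receptor, fell (-1.67 ± 0.17 in ISF and -1.42 ± 0.17 in SF, SE) and was lower in ISF than in SF at 10 days (-1.18 ± 0.18, SE, adjusted p = 1.62e-06). Between the fluids, 0 of the 6 were called at 48 and at 96 hours, 1 was higher in ISF at 6 days (IFNGR1) and at 10 days 1 was higher (IL10RB) and 1 lower. The shares of all tested genes called at these 4 times were 1.68%, 10.5%, 30.2% and 20.8%.

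All 10 genes of JAK-STAT signaling and its brakes were tested. Between the fluids 1 was lower in ISF at 48 hours (TYK2) and 1 was higher at 96 hours. At 6 days 3 were higher and 1 lower, and at 10 days 1 was lower. Of all tested genes, 1.68%, 10.5%, 30.2% and 20.8% were called at these 4 times. SOCS3, a brake on cytokine receptors, was at 60.1 to 131 in ISF and at 12.6 to 56.4 in SF at 96 hours, without overlap (1.63 ± 0.36, SE, limma adjusted p = 0.00110), and was higher in ISF again at 6 days by 1.62. CIITA, the switch of MHC class II genes, was at 1.21 to 1.91 in ISF and 5.56 to 14.3 in SF at 10 days, without overlap (-2.08 ± 0.25, SE, adjusted p = 4.60e-09). The B cell and T cell markers were lower in ISF in the same comparison (medians of 1.25 against 3.23 and of 1.32 against 4.12), and their part was not tested.

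Of 15 sensors, adaptors and IRFs upstream of interferon, 14 were tested. Between the fluids 0 were called at 48 hours, and 2 were higher in ISF and 2 lower at 96 hours. At 6 days 5 were higher and 3 lower, and at 10 days 2 were higher and 4 lower. Among all tested genes 1.68%, 10.5%, 30.2% and 20.8% were called at these 4 times. TLR8, a receptor of single-stranded RNA, was higher in ISF at 96 hours by 1.58 ± 0.25 (SE, limma adjusted p = 5.29e-06) and at 6 days by 1.77. STING1, the adaptor for DNA in the cytoplasm, was lower in ISF at 96 hours by -1.17 ± 0.23 (SE, adjusted p = 2.49e-04), at 6 days by -1.26 and at 10 days by -1.20. TLR7, which also reads single-stranded RNA, was lower in ISF at 6 days (-0.96) and 10 days (-1.52).

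Of 28 further interferon-induced genes, 20 were found and tested. Between the fluids 0 were called at 48 and at 96 hours, and 1 was higher (TRIM21) and 1 lower (IFI30) in ISF at 6 days. The shares of all tested genes at these 3 times were 1.68%, 10.5% and 30.2%. At 10 days 0 were higher and 5 of 20 lower in ISF, beside 20.8% of all tested genes called in either direction and 10.8% lower, with CXCL11, a chemokine induced by interferon, at -2.08 ± 0.57 (SE, limma adjusted p = 0.00569) and PLSCR1, an antiviral scramblase, at -1.40 ± 0.36 (SE, adjusted p = 0.00275). CXCL11 was at 0 to 3.48 in ISF and at 0 to 226 in SF at 10 days, with Dealings highest in both fluids.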

How the data were processed

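The authors sequenced 68 libraries, made with TruSeq kits, as stranded paired-end reads on a NovaSeq instrument. The authors trimmed the reads, aligned and counted them with STAR 2.7.2a on EquCab3.0 and normalized the counts with edgeR to GeTMM, an RPKM-type unit per length and library size, and these deposited values were used here. Whole reads were recovered from the steps in the GeTMM values, within 0.02 reads, for 20765 of 24065 genes above 0. Depth limits low genes, and 1 read on a 1 kb gene was worth 0.0338 to 0.0979 GeTMM.

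The 14570 genes that reached 0.5 GeTMM in 7 or more libraries were tested with limma 3.58.1 (R 4.3.3) on log2(GeTMM + 1), in 1 fit of 9 groups, with Benjamini-Hochberg adjustment and a threshold of 0.05. Fold changes are on the log2(GeTMM + 1) scale, which understates changes of low genes. The fit was tested on simulated data with independent normal noise in each library. Such data lack the likeness between libraries of 1 horse and single libraries far from their group. Libraries of 1 horse carry its name. The main fit held no term for the horse, so its tests were not paired by animal. Residuals of 2 libraries of 1 horse had a median correlation of 0.263 (258 pairs) against -0.046 for different horses (2020 pairs). A fit with the horse as a block was an alternative, beside another pseudocount (0.1), no filter, quantile normalization, library weights, limma voom on the recovered reads, a minimum fold of 1 on the log2 scale, only the groups compared, each horse left out, and the doubted libraries left out.

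The members and lists were chosen with earlier results of these data known. ISG15, MX1, RSAD2, IRF7 and STAT2 and up to 3 called members at either extreme of fold in each fluid comparison and each first interval were named by rule. Other members were named by role or after their values were seen. Of other lists, the called genes with the largest folds were named. Marker lists served as checks. No sequence is printed, since no genome of the build was used here.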

Additional observations from a re-analysis of the deposited data

Results flagged for a closer look

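The mean level and the named genes were looked at in each group for a single library far from the rest, by Dixon's gap over range at the 95% level, in 126 groups of values, and 22 libraries' values were marked. Chance marks about 1 in 20 such groups, and values of 1 library are not independent of each other. All values are log2(GeTMM + 1).

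The 0 hour library of Dealings was marked 8 times. It was high for the mean level of the 35 genes at 6.11, ISG15 at 8.36, MX1 at 8.085, RSAD2 at 2.225, IRF7 at 8.58, PARP14 at 3.965, OAS2 at 4.796 and IFI6 at 8.79. The SF library of Dealings at 6 days was marked for the mean level at 5.75, MX1 at 8.435, OAS2 at 6.90, DHX58 at 5.36 and HERC6 at 4.59. The SF library of Dealings at 10 days was marked for MX1 at 10.6 and DHX58 at 7.715.

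In ISF the library of Ollie at 48 hours was high for HERC6 at 7.29. The library of Moon at 96 hours was high for ISG15 at 9.16 and SAMD9 at 5.86, and that of Lurie at 6 days for IRF1 at 6.355. The SF library of Moon at 6 days, which held 2763 tested genes at 0, was high for ISG20 at 5.27 and low for STAT2 at 2.85 and SAMD9 at 0.1196.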

How the results depend on the processing

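Counts of called members moved with the fit. With the horse as a block the count was 1 at 96 hours and 2 at 6 days between the fluids, 8 in SF from 48 to 96 hours, 4 in SF and 1 in ISF from 6 to 10 days, and no other count moved by more than 1.5 times. With library weights it was 1 at 48 hours, 1 at 96 hours and 2 at 6 days between the fluids, 6 in ISF and 11 in SF from 48 to 96 hours, 1 in ISF and 0 in SF from 6 to 10 days. With only the groups compared it was 0 at 6 days and 0 at 10 days between the fluids, and in SF 8, 12, 0 and 0 in the successive intervals. With a minimum fold of 1 on the log2 scale it was 0 at 6 days between the fluids, and in SF 3 from 0 to 48 hours and 0 from 6 to 10 days. Without a filter it was 1 and 0 in the last pair of intervals in SF. With a pseudocount of 0.1 it was 1 in SF from 96 hours to 6 days and 1 in ISF from 6 to 10 days. In SF from 6 to 10 days it was also 0 with quantile normalization, limma voom, without both doubted libraries at 96 hours and without Moon in SF at 6 days. Without the last it was 1 in ISF. Without 1 horse in turn it ran from 0 to 1 at 6 days and 2 to 6 at 10 days between the fluids. In ISF it ran from 2 to 4 from 48 to 96 hours and 0 to 1 from 6 to 10 days. In the successive intervals in SF it ran from 3 to 6, 3 to 6, 1 to 3 and 0 to 3. The cause was not tested. No called fold of a named gene changed sign in any of the 17 alternatives. Quantile normalization moved the median of all genes by less than 0.1.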
